A study of Mus musculus with 5 samples.

Results

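The genes described here encode the histones, the proteins on which DNA is wound into chromatin. They were selected on their names in the deposited gene table, as every row named Hist1h, Hist2h, Hist3h or Hist4h and every row named H2af, H3f3 or H1f, and a Hist row was kept where its chromosome was that of its cluster (13 for Hist1, 3 for Hist2, 11 for Hist3 and 6 for Hist4). Of 68 rows so named, 50 were kept out of 11608 rows in the table, 41 of them replication-dependent genes and 9 of them variant genes. At none of the 18 rows left out does the annotation of the same genome build have the gene of that name. The RNA accession of 13 of them belongs to another gene, and that of 5 could not be matched. Because neighbouring histone genes often share the same values, rows with identical values in all 4 libraries were counted once, which gave 23 replication-dependent loci and 9 variant loci. The replication-dependent loci were 21 in Hist1, 1 in Hist2 and 1 named Hist3. The Hist3h2ba row does not lie at Hist3h2ba in the annotation, and its region holds no coding gene. In 47 of the 50 rows the annotation has the gene of that name at the row's position, and Hist1h4m and Hist1h2ao are the other exceptions.

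Replication-dependent histone genes make the bulk of the histones H1, H2A, H2B, H3 and H4 while a cell copies its DNA. They are short, mostly without introns, and lie side by side in clusters. Their messages end in a stem-loop that is cut and bound by dedicated factors instead of carrying a poly(A) tail. Most variant histone genes lie outside the clusters, have polyadenylated messages and do not depend on DNA replication for their use, and some are particular to a cell state. An activated T cell divides quickly, and its histone genes must keep pace with the DNA it copies.

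The measurement was ChIP-Seq with an antibody to RNA polymerase II phosphorylated on serine 2 of its tail, the form that travels along genes during elongation. CD4+CD62L+ naive T cells from spleens of 6 to 8 week old C57BL6 mice were activated and grown for 3 days with IL-4 at 10 ng/ml and an antibody to IFN-g, then expanded for 4 days with IL-2 and IL-4, which makes them Th2 cells. They were Parp14+/+ or Parp14-/-, where PARP-14 is an ADP-ribosyltransferase that works with STAT6, and each genotype was grown without or with PJ34, an inhibitor of PARP enzymes. The PJ34 dose is 10 µM in the sample labels and 5 µM in the methods of the study. Each of the 4 conditions was 1 library, so no comparison below has replicates and none was tested. Each interval treats peak heights as plain counts and covers only the counting error so computed. The histone ratios of these libraries were known when the genes were chosen, so all values are descriptions.

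Parp14 itself had heights of 8 and 11 in Parp14+/+ cells without and with PJ34, and of 6.67 and 6.67 in Parp14-/- cells without and with it. Whenever 4 values follow each other below, they stand in this order. The part of the gene that the knockout removes is not given in the sources used here, so these heights do not check the labels. Of the Th2 markers, all 4 (Il4, Il5, Il13 and Gata3) were measured, with summed heights of 180, 151, 95 and 77. All 3 T cell markers had a row, with summed heights from 29.5 to 40. All 3 Th1 markers did too, with sums of 87, 67, 72 and 56. Of the other cell types, neither CD8 T cell marker had a usable row, 2 of 3 myeloid markers summed to between 6 and 12.5, and 1 of 3 B cell markers, Cd79a, had heights of 38, 36, 34 and 28 in a region of 30150 bp that also covers Arhgef1 and Rps19. What other cells add to the histone values was not tested. The authors brought each library to 8200000 alignments, and the median height over all rows was between 7.4 and 8.33.

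The sequences around these genes carry the features for which replication-dependent histone genes are known. Promoters of 300 bases, from 250 before to 50 after the start, were matched by gene identifier for 45 of the 50 genes in RefSeq (GRCm38.p6). They are printed for Hist1h1c, the tallest H1 locus, for Hist1h2bb, the tallest H2B locus, for Hist1h4c, the tallest H4 locus, and for H3f3b, the tallest variant. Capitals mark a motif on either strand. The motifs were the CCAAT box, searched as CCAAT. The TATA box was searched as TATAAA. The octamer, which is the site of Oct1, a factor known from H2B genes, was searched as ATTTGCAT.
Hist1h1c promoter, chr13:23738557-23738856, + strand, GRCm38.p6: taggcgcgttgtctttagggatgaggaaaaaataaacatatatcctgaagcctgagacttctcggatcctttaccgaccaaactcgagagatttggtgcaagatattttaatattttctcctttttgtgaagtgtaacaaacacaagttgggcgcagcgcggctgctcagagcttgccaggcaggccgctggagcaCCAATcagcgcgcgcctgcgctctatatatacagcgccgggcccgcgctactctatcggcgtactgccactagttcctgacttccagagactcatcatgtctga
Hist1h2bb promoter, chr13:23746484-23746783, + strand, GRCm38.p6: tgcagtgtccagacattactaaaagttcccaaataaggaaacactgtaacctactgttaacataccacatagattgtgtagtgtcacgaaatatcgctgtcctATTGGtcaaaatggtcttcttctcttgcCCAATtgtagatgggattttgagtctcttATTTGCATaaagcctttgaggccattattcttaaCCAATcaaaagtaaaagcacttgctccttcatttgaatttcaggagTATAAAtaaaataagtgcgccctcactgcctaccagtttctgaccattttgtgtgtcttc
Hist1h4c promoter, chr13:23698409-23698708, - strand, GRCm38.p6: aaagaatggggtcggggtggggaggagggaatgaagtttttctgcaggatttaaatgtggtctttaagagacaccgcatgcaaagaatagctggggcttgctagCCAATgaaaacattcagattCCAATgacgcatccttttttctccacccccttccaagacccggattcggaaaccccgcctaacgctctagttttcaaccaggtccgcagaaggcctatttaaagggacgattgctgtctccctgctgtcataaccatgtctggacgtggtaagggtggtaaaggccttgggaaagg
H3f3b promoter, chr11:116024455-116024754, - strand, GRCm38.p6: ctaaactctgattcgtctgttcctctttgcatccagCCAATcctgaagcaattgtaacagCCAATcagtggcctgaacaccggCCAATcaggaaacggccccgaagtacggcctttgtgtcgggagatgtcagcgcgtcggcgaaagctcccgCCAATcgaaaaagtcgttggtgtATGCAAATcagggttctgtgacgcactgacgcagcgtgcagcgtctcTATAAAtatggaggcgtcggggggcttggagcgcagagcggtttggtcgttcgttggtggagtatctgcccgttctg

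CCAAT was found in 32 of 37 replication-dependent promoters (86.5%) and in 6 of 8 variant promoters, beside 37.4% of all 32851 promoters of the same length. It was present in all H1, H2A, H2B and H3 promoters matched and in 3 of 8 H4 promoters. TATAAA stood in 22 of 37 replication-dependent promoters (59.5%) and in 1 of 8 variant promoters, that of H3f3b, beside 13.6% of all promoters. The octamer stood in 6 of 37 replication-dependent promoters (16.2%), 3 of them H2B and 3 of them H2A, and in 1 of 8 variant promoters, again that of H3f3b, beside 1.74% of all. H3f3b was therefore the variant whose promoter held the 3 motifs together, as that of Hist1h2bb did. A match is a description of letters and says nothing of binding in these cells.

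The stem-loop was searched by its shape, an arm of 6 bases that starts with GG and ends in T, a loop of 4 bases that starts with TT, and the complementary arm, from 100 bases before to 200 bases after the gene end. It was found at 26 of 41 replication-dependent genes (63.4%), at 0 of 9 variant genes, and at 18 of the 11540 rows with other names (0.156%). The search covers this window only, so a row without a match, variant or not, can have a stem-loop outside it. The arms are in capitals below, each read from the NCBIM37 genome (mm9) at the gene named.
Hist1h4c stem-loop, chr13:23789958-23789973, - strand, NCBIM37: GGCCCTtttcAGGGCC
Hist1h2bb stem-loop, chr13:23839072-23839087, + strand, NCBIM37: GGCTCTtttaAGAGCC
Hist1h1b stem-loop, chr13:21871706-21871721, - strand, NCBIM37: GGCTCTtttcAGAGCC

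The Hist1h1b form was the most common, with 13 genes. The Hist1h2bb form was shared by 6 genes, and the Hist1h4c form by 5, all of them H4. Of the H1 genes, Hist1h1a and Hist1h1b had a match, and Hist1h1c, Hist1h1d, Hist1h1e and Hist1h1t had none in this window, which says only that these letters are not near the end of the row.

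The near-identity of these genes limits what 36-base reads can show, because the authors kept uniquely mapped reads. The share of 36-base words of a gene that occur once in the NCBIM37 genome had a median of 37.0% over the 41 replication-dependent genes and was below 50% in 25 of them. It was 0% for Hist1h2ad, Hist1h2ao and Hist1h4m, the last an H4 gene, whose rows hold no unique word at all. The H1 genes had shares from 89.5% to 100%, whereas H3 genes ran from 13.8% to 43.5% and H4 genes from 0% to 53.6%. H2A genes ran from 0% to 86.7% and H2B genes from 4.62% to 97.5%, so that some H2B genes reached the range of H1. Variant genes ran from 67.1% (H2afz) to 100% (H1f0), with a median of 92.3%. A low height at a core histone gene can therefore not be told apart from reads that were discarded. Heights of different loci are given below as deposited and are not levels of transcription that can be ranked, whereas the ratios compare libraries within a locus.

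**Figure D1:**
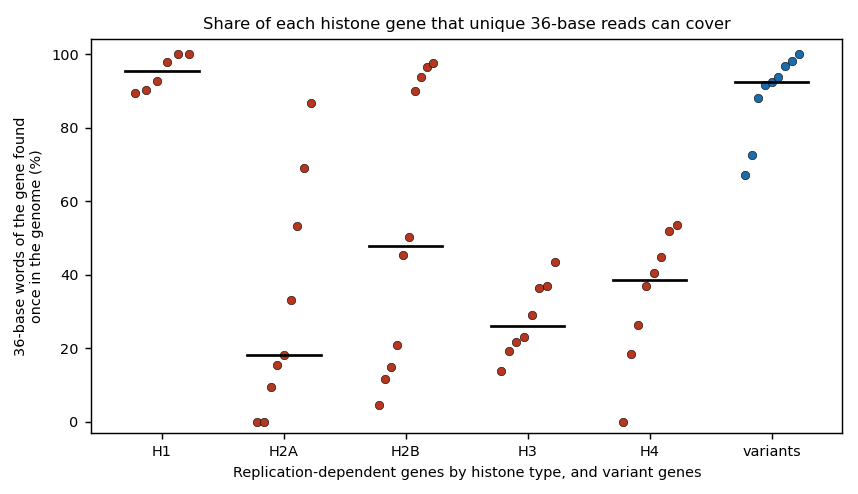
Share of the 36-base words of each histone gene that occur once in the genome (vertical axis, percent), by histone type, with 1 point per gene and a bar at the median. The 6 H1 genes and most variants lie near the top, while all 8 H3 genes lie below 50%.

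The deposited value is a peak height. In each active region near a gene the tallest pile-up of fragments is taken, and these are averaged. An active region is a stretch under an interval of enrichment in any of 8 libraries, and regions from 2.5 kb before to 5 kb after a gene were found to be averaged into its row. The heights therefore belong to loci more than to genes. Behind the 23 replication-dependent loci stood 21 regions, 10 of which enter more than 1 locus. There were 28 active regions over annotated replication-dependent genes and no variant gene. All of them could be given a height of their own, including 8 that no accepted row uses. Over the whole table this held for 5929 of the 17291 regions that rows use (34.3%). The region that Hist4h4 shares with the variant H2afj is not among the 28. Where shares of all regions are given below, they are taken over those with a height of their own only.

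The tallest replication-dependent locus was Hist1h1c/Hist1h3c, with heights of 49, 50, 72 and 81, above both Parp14+/+ libraries in both Parp14-/- libraries. Hist1h1c encodes linker histone H1.2 and Hist1h3c an H3, and both lie in 1 region, chr13:23828401-23841750 in mm9. The highest point of the region lay inside Hist1h1c (chr13:23830676-23832235) in all 4 libraries. The tallest H2B locus, Hist1h2bb, had heights of 28, 29.5, 43 and 45.5, but this is the mean of the Hist1h1c region and a neighbouring region whose own heights were 7, 9, 14 and 10. The order of its values thus comes largely from the Hist1h1c region.

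The tallest H4 locus, Hist1h1t/Hist1h4c, had heights of 33, 29, 28 and 38, with the highest point inside Hist1h4c in each library. Hist1h1t is the linker histone known from testis and shares the region. Hist1h2ad/Hist1h3d, the tallest locus with an H2A gene, had heights of 19.5, 20, 21 and 22, within 2.5 fragments of each other. It is the mean of its own region, at 13, 18, 15 and 15, and that of Hist1h4d and Hist1h2be, at 26, 22, 27 and 29, and no uniquely mapped read fits wholly inside Hist1h2ad. H3f3b, which encodes the replacement histone H3.3, reached 53, 67, 76 and 76, lowest in Parp14+/+. By mean height over the 4 libraries, Hist1h1c/Hist1h3c and H3f3b stood above 99.5% and 99.6% of all distinct rows of the table.

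**Figure D2:**
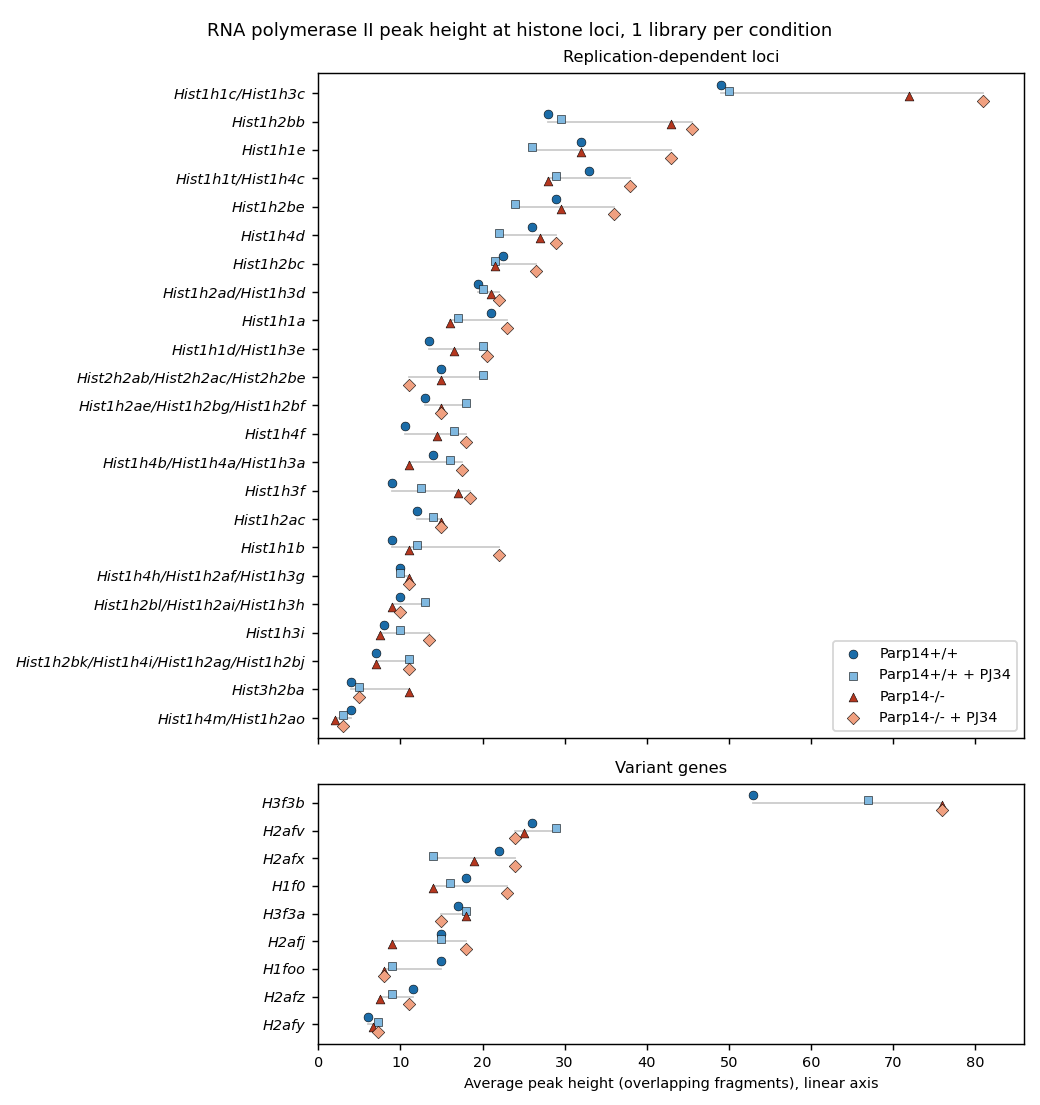
Average peak height (horizontal axis, overlapping fragments) at each replication-dependent locus and variant gene, with 1 symbol per library, and a grey line from the lowest to the highest. At Hist1h1c/Hist1h3c the Parp14-/- libraries (72 and 81) stand apart from the Parp14+/+ libraries (49 and 50), and in 15 of 23 replication-dependent loci Parp14-/- + PJ34 is the highest of the 4.

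Linker histones bind the DNA between nucleosomes. All 6 loci with an H1 row were highest in Parp14-/- + PJ34 alone. Among them is Hist1h1t/Hist1h4c, whose highest point lay inside Hist1h4c, an H4 gene, in each library. Hist1h1e, which encodes H1.4, had heights of 32, 26, 32 and 43, and Hist1h1b, which encodes H1.5, 9, 12, 11 and 22. Hist1h1a had heights of 21, 17, 16 and 23, and the Hist1h1d/Hist1h3e locus 13.5, 20, 16.5 and 20.5. For Hist1h1a and Hist1h1d the lead of Parp14-/- + PJ34 over the next library was 2 fragments or less. Over all 23 replication-dependent loci, 15 were highest in Parp14-/- + PJ34 alone, whereas 12.9% of all distinct rows were. Counted by region, it was 10 of 28, beside 14.1% of all regions whose height could be given, and Parp14+/+ + PJ34 was alone the highest in 9 of 28, beside 26.8%. Parp14-/- + PJ34 was alone the highest in 6 of 8 loci with an H3 row and 4 of 7 with an H4 row. It was so in 3 of 8 with an H2B row and 1 of 8 with an H2A row. A locus counts under each type it holds. Parp14+/+ was alone the lowest library in 10 of 23 loci, beside 18.6% of all distinct rows. By region it was the lowest in 9 of 28 and Parp14-/- in 8 of 28, beside 17.6% and 16.8%.

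Along chromosome 13 the 23 Hist1 regions form a proximal group of 9 and a distal group of 14. The proximal regions were low, with a median height of 7, 9, 7 and 9, and the tallest was that of Hist1h1b and Hist1h3i, which reached 22 in Parp14-/- + PJ34. The distal regions had medians of 12.5, 17.5, 15.5 and 20.5. The summed heights of the distal regions were 255, 275, 303 and 355, which gave a ratio of Parp14+/+ to Parp14-/- of 0.84 (95% counting interval 0.71 to 1.00) without PJ34 and 0.77 (0.66 to 0.91) with it. The proximal regions summed to 69, 80, 58 and 80, with ratios of 1.19 (0.83 to 1.72) and 1.00 (0.72 to 1.38). Over all regions with a height of their own the ratios of the sums were 0.98 and 1.07. The Hist1h1c region alone gave 49, 50, 72 and 81 of the distal sums, and the distal ratios without it were not computed. The difference between the groups of regions was not tested.

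**Figure D3:**
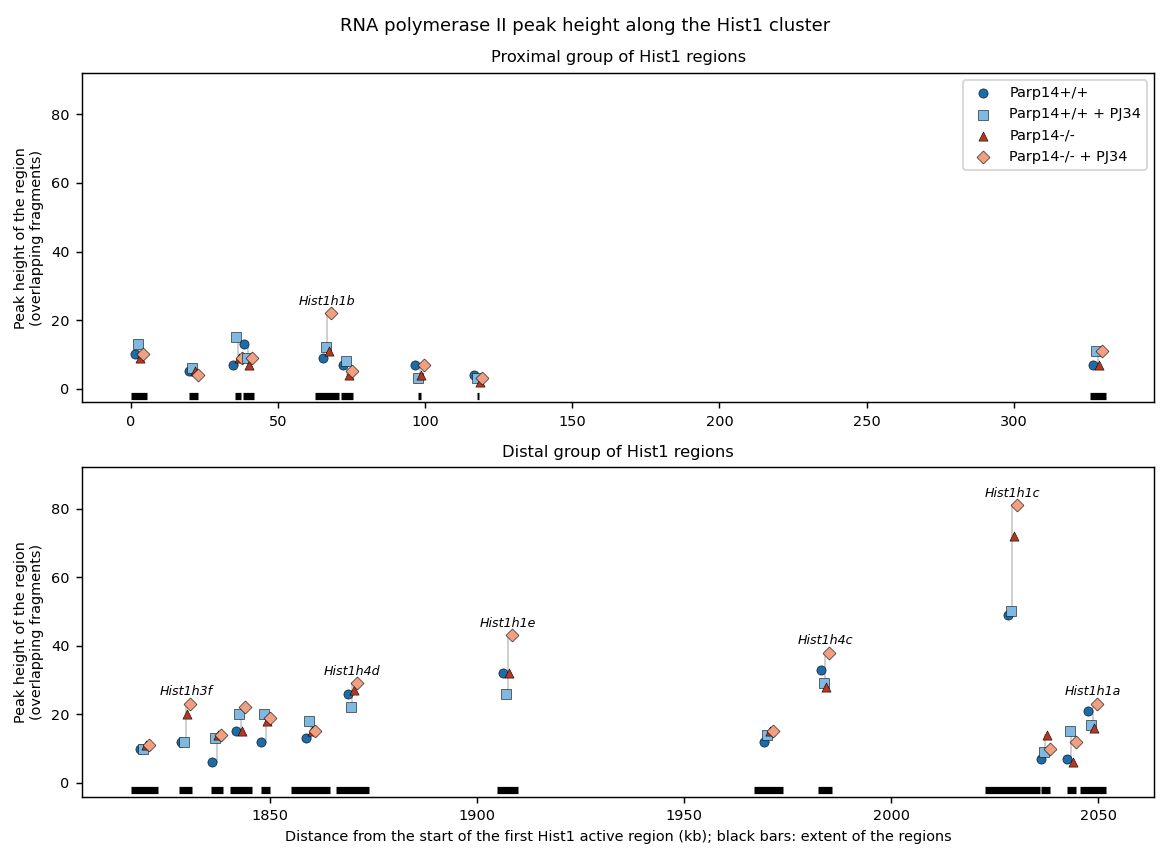
Peak height of each active region of the Hist1 cluster (vertical axis, overlapping fragments) against distance from the first region (kb), with 1 symbol per library and black bars for the extent of the regions. The proximal regions lie at 22 or below, and in the distal group the Hist1h1c region reaches 81.

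The core histones form the nucleosome itself. Under PJ34 the median ratio of Parp14+/+ to Parp14-/- was 0.68 over the 6 loci with an H1 row, 1.00 over 8 with an H2A row, 1.00 over 8 with an H2B row, 0.91 over 8 with an H3 row and 0.91 over 7 with an H4 row. Without PJ34 the same medians were 0.91, 0.96, 0.99, 0.92 and 1.00. Over all distinct rows the median was 1.14 under PJ34 and 1.00 without it. All 6 loci with an H1 row, Hist1h1t/Hist1h4c among them, were lower in Parp14+/+ + PJ34 than in Parp14-/- + PJ34. So were 7 of 8 H3 loci, 5 of 7 H4 loci and 3 of 8 loci each for H2A and H2B, beside 29.6% of all distinct rows. In the PJ34 comparison within Parp14-/- the H4 median, 0.74, was as low as that of H1, 0.74, and within Parp14+/+ the H2A and H2B medians were 0.81 and 0.78 beside 1.06 for H1. The medians over all distinct rows were 1.07 within Parp14-/- and 0.95 within Parp14+/+. Loci of different types share regions, and the differences between types were not tested. Hist1h2be, an H2B locus at 29, 24, 29.5 and 36, is the mean of the Hist1h4d region and the Hist1h1e region. Each of these also holds part of Hist1h2be, so its order mixes H2B, H4 and H1 genes. The highest point of the Hist1h4d region lay inside Hist1h2be in Parp14+/+ + PJ34 and in Parp14-/-.

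The first question of the design was what changes where PARP-14 is absent. In the untreated pair, the ratio of Parp14+/+ to Parp14-/- over the 23 replication-dependent loci had a median of 0.96 and ran from 0.36 to 2.00. The median over all distinct rows was 1.00. There were 7 loci above 1 and 13 below 1, beside 46.3% and 43.1% of all distinct rows. Ratios above 1.4 and below 0.7 were counted here, the outer limits that the study used. The study also took genes of enough height between 1.2 and 1.4 or between 0.7 and 0.83 and asked for an interval, and neither step was applied here. Of the 23 loci 1 had a ratio above 1.4, beside 14.1% of all distinct rows, and 4 had one below 0.7, beside 13.5%. The former was Hist1h4m/Hist1h2ao, at 4, 3, 2 and 3 fragments, in a region that the annotation gives to Hist1h4n. The latter were Hist1h3f, Hist1h2bb, Hist1h1c/Hist1h3c and the misplaced Hist3h2ba row.

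The 5 lowest ratios among loci of mean height 10 or more were 0.53 at Hist1h3f (0.28 to 0.96), 0.65 at Hist1h2bb (0.46 to 0.92), 0.68 at Hist1h1c/Hist1h3c (0.46 to 0.99), 0.72 at Hist1h4f (0.39 to 1.31) and 0.80 at Hist1h2ac (0.34 to 1.83). In the first 3 the counting interval lay below 1, which held for 1.54% of all distinct rows, and in no locus above 1, which held for 0.807%. The interval narrows as height rises, and these shares are over rows of every height, most of them lower than these loci. Among loci of mean height 10 or more, 3 of 19 were below 0.7 and 0 above 1.4. The shares of distinct rows of that height were 12.9% and 10.7%. The Hist1h3f row had heights of 9, 12.5, 17 and 18.5 and averages its own region, at 12, 12, 20 and 23, with that of Hist1h4f, at 6, 13, 14 and 14. Counted once per region, the interval lay below 1 at the Hist1h1c region alone and above 1 at none, beside 1.4% and 0.675% of all regions. Past the limits were 4 regions above 1.4 and 7 below 0.7, beside 18.8% and 18.6% of all regions. The 5 highest ratios were 1.31 at Hist1h1a (0.65 to 2.69), 1.27 at Hist1h4b/Hist1h4a/Hist1h3a (0.70 to 2.33), 1.18 at Hist1h1t/Hist1h4c (0.69 to 2.02), 1.11 at Hist1h2bl/Hist1h2ai/Hist1h3h (0.41 to 3.09) and 1.05 at Hist1h2bc (0.67 to 1.63). None of these intervals excluded 1.

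Under PJ34 the same genotype ratio was lower at replication-dependent loci and higher over the table. Its median was 0.91 over the 23 loci and 1.14 over all distinct rows, so the replication-dependent median was 0.80 when the libraries were scaled to the median of the table. Of 23 loci 17 had a ratio below 1, beside 29.6% of all distinct rows, and 3 a ratio above 1, beside 61.1%. There were 6 loci below 0.7, beside 8.02% of all distinct rows, and 1 above 1.4, beside 23.4%. The 6 were Hist1h1b, Hist1h1c/Hist1h3c, Hist1h1e, Hist1h2bb, Hist1h2be and Hist1h3f. The 1 above was Hist2h2ab/Hist2h2ac/Hist2h2be, at 15, 20, 15 and 11, with a ratio of 1.82 (0.83 to 4.20). The lowest ratios were 0.55 at Hist1h1b (0.25 to 1.15), 0.60 at Hist1h1e (0.36 to 1.01) and 0.62 at Hist1h1c/Hist1h3c (0.42 to 0.89). The counting interval lay below 1 at 3 loci, Hist1h2be, Hist1h1c/Hist1h3c and Hist1h2bb, beside 0.572% of all distinct rows, and above 1 at 0, beside 2.25%. By region it lay below 1 at the Hist1h1c region alone, beside 0.793% of all regions, and above 1 at none, beside 0.978%. There were 5 regions above 1.4 and 6 below 0.7, beside 27% and 12.8%.

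Below 0.7 both without and with PJ34 were 3 loci, Hist1h3f, Hist1h2bb and Hist1h1c/Hist1h3c, beside 2.26% of all distinct rows. Since Hist1h2bb takes in the Hist1h1c region, these are 2 separate places in the cluster. No replication-dependent locus was above 1.4 in both pairs, whereas 4.26% of all distinct rows were. Below 1 in both pairs were 11 loci, beside 15.3%, and above 1 in both was 1, beside 31.3%. By region, 3 were below 0.7 in both pairs (those of Hist1h1c, Hist1h3f and Hist3h2a) and 1 was above 1.4 in both, that of Hist1h2an and Hist1h2bp, beside 3.85% and 6.13% of all regions. There were 10 regions below 1 in both and 4 above 1 in both, beside 16.3% and 26.7%. Summed over the 28 regions, heights were 380, 428, 427 and 515. The ratio of the sums was 0.89 (0.77 to 1.02) in the untreated pair and 0.83 (0.73 to 0.95) in the PJ34 pair, beside 0.98 and 1.07 over all regions with a height of their own. Without the Hist1h1c region the ratios were 0.93 (0.80 to 1.09) and 0.87 (0.76 to 1.00).

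**Figure D4:**
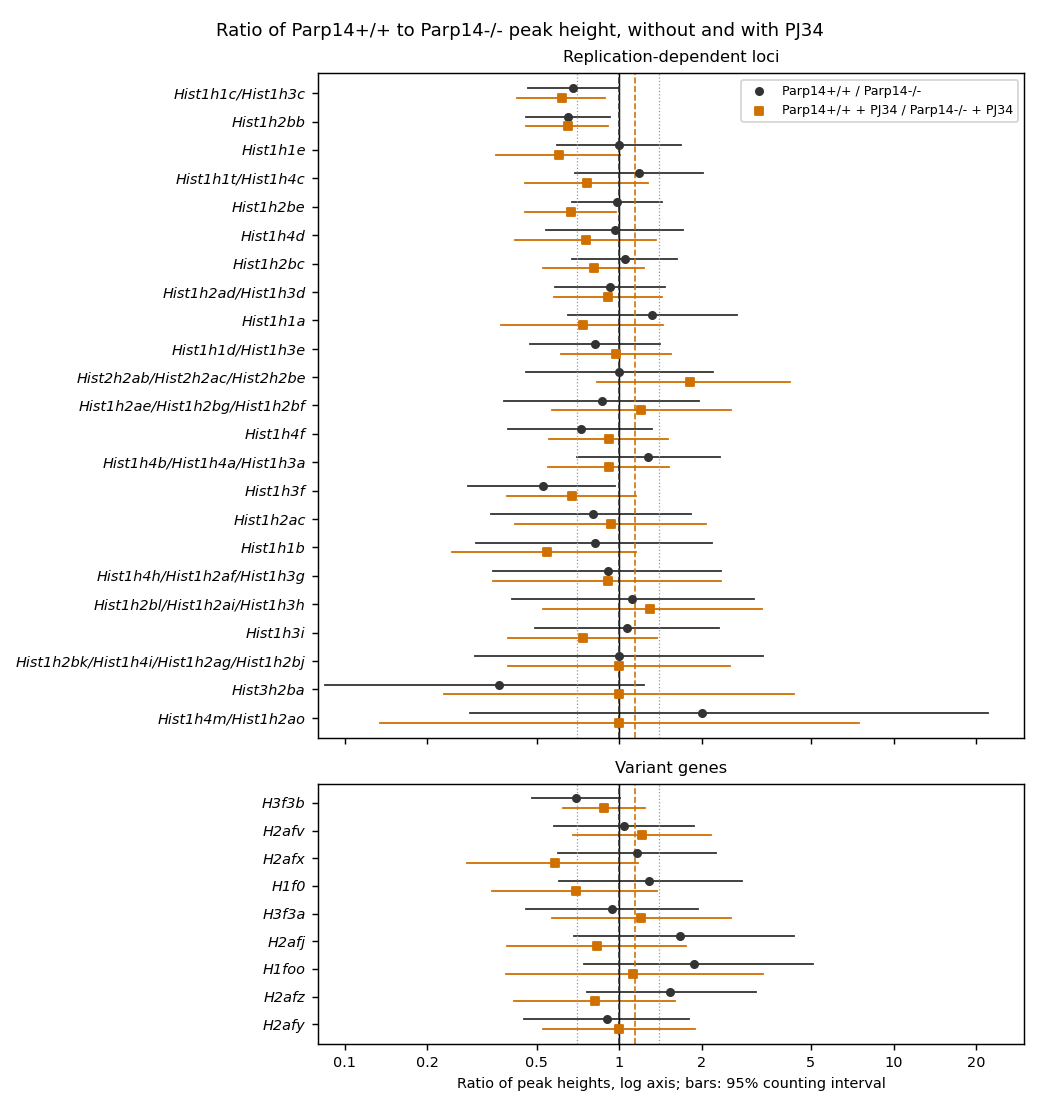
Ratio of Parp14+/+ to Parp14-/- peak height (horizontal log axis) at each histone locus, without PJ34 (black circles) and with PJ34 (orange squares), with 95% counting intervals. Dashed lines give the median over all distinct rows (1.00 and 1.14) and dotted lines the limits 0.7 and 1.4, and most replication-dependent squares lie left of 1.

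The second question was what PJ34 changes within a genotype. In Parp14+/+ cells the ratio of untreated to treated height had a median of 0.88 over the 23 loci, beside 0.95 over all distinct rows, with 15 below 1 and 7 above 1, beside 52.7% and 36.8%. There were 3 loci below 0.7, beside 14.2% of all distinct rows, and 0 above 1.4, beside 8.82%. The 3 were Hist1h4f at 0.64 (0.35 to 1.13), Hist1h1d/Hist1h3e at 0.68 (0.40 to 1.13) and the 4-gene locus from Hist1h2bk to Hist1h2bj at 0.64 (0.21 to 1.81). In Parp14-/- cells the median was 0.82, beside 1.07 over all distinct rows, with 18 below 1 and 2 above 1, beside 34.6% and 54.1%. There 6 loci were below 0.7, beside 8.87% of all distinct rows, and 1 was above 1.4, beside 16.3%. The lowest were Hist1h1b at 0.50 (0.22 to 1.08) and Hist1h3i at 0.56, which share a region, and the one above was the misplaced Hist3h2ba row at 2.20.

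No counting interval of a replication-dependent locus excluded 1 in either PJ34 pair, so no single locus differed beyond its counting interval. Over all distinct rows the interval lay above 1 in 0.429% and below 1 in 0.725% in Parp14+/+, and above 1 in 1.06% and below 1 in 0.276% in Parp14-/-. The sums over the 28 regions gave 0.89 (0.77 to 1.02) in Parp14+/+ and 0.83 (0.73 to 0.94) in Parp14-/-. Both genotype and treatment comparisons use the same 4 libraries, so their ratios are not independent. At Hist1h1c/Hist1h3c the PJ34 ratios were 0.98 (0.65 to 1.48) and 0.89 (0.64 to 1.24), nearer to 1 than its genotype ratios.

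**Figure D5:**
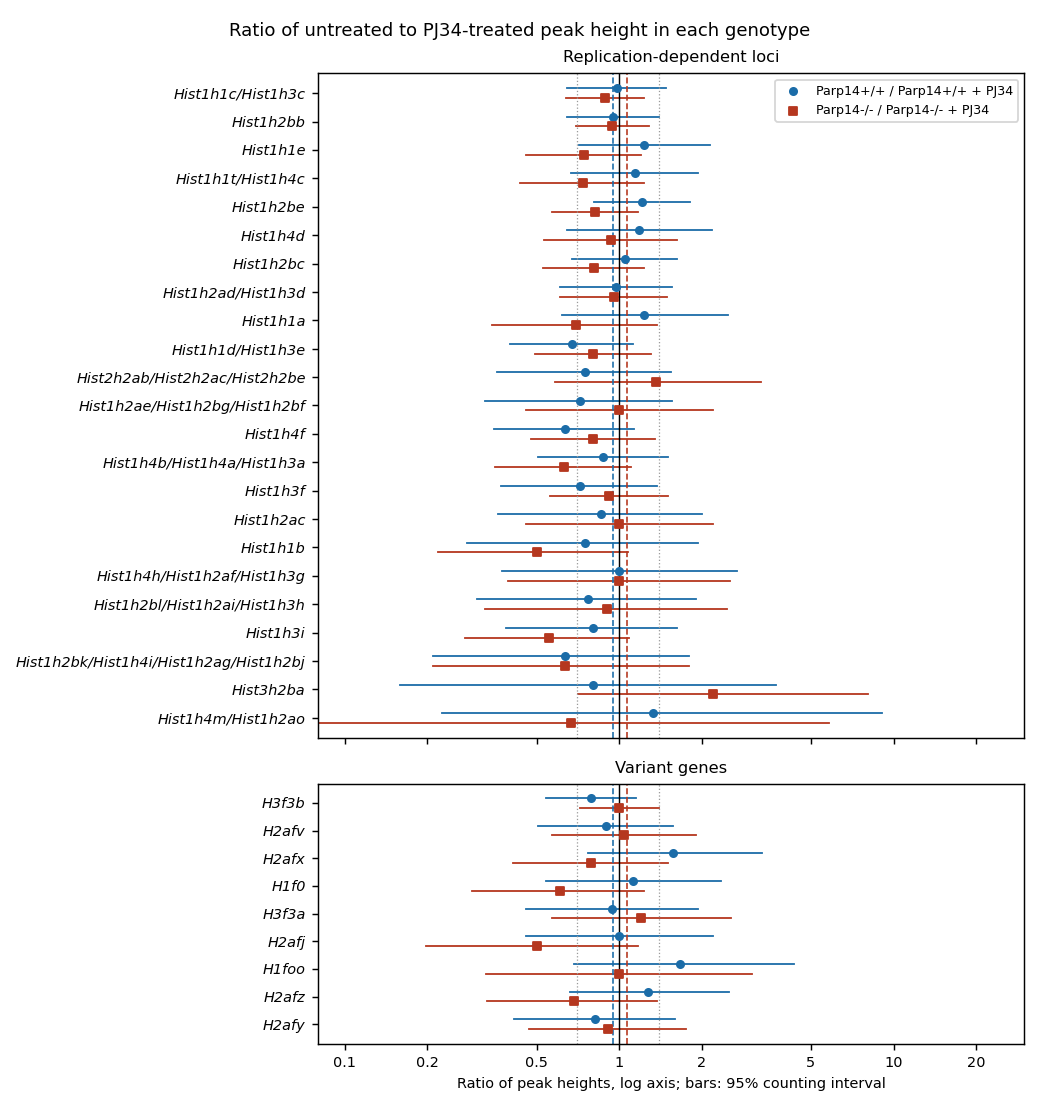
Ratio of untreated to PJ34-treated peak height (horizontal log axis) at each histone locus in Parp14+/+ (blue circles) and Parp14-/- (red squares), with 95% counting intervals. Dashed lines give the medians over all distinct rows (0.95 and 1.07), and no interval of a replication-dependent locus excludes 1. The lower end of the Hist1h4m/Hist1h2ao interval in Parp14-/- (0.056) lies outside the axis.

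The variant genes did not share 1 direction. In the untreated pair 3 of 9 had a ratio above 1.4 (H1foo, H2afj and H2afz) and 1 had one below 0.7 (H3f3b), beside 14.1% and 13.5% of all distinct rows, with a median of 1.16. Under PJ34 the median was 0.88, 0 were above 1.4 and 2 were below 0.7 (H2afx and H1f0), beside 23.4% and 8.02%. Without the H2afv row, which rests on a region of Ppia, the medians were 1.22 untreated and 0.86 under PJ34. The regions behind H1foo, H2afj and H2afz also take in neighbouring genes, as given below. H1f0, H2afz, H2afj and H2afx had a ratio above 1 without PJ34 and below 1 with it. No variant interval excluded 1 in any of the 4 pairs. Summed over the 9 genes, the ratios of the sums were 1.01 (0.83 to 1.24) and 0.90 (0.74 to 1.09).

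H3.3 is encoded by H3f3b and H3f3a. H3f3b had a ratio of Parp14+/+ to Parp14-/- of 0.70 (0.48 to 1.00) without PJ34 and 0.88 (0.63 to 1.24) with it, and its region of 25500 bp also covers Galk1 and part of Itgb4. H3f3a, which encodes the same protein, had heights of 17, 18, 18 and 15, within 3 fragments of each other, in a region that covers no other coding gene.

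Of the H2A variants, H2afx, whose product is phosphorylated at DNA breaks, had heights of 22, 14, 19 and 24. H2afz, which encodes H2A.Z, had heights of 11.5, 9, 7.5 and 11, the mean of its own region and that of Dnajb14. H2afy, the macroH2A gene, was low at 6, 7.33, 6.67 and 7.33 over 3 regions. H2afj had heights of 15, 15, 9 and 18, in a region that also covers Hist4h4, the single Hist4 gene, and Wbp11. The H2afv row, at 26, 29, 25 and 24, rests on 1 region that lies 2179 bp from the gene and covers Ppia, so its height is not that of H2afv.

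Of the H1 variants, H1f0, the linker histone of resting cells, had heights of 18, 16, 14 and 23 in a region that reaches Gcat. H1foo, the oocyte linker histone, had heights of 15, 9, 8 and 8 in a region that covers Plxnd1, with the highest point of its intervals at least 875 bp outside the gene and no interval there in Parp14+/+. Between libraries the lowest H1foo values lay in the 3 libraries other than Parp14+/+.

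Intervals of enrichment gave a second view of the clusters. Of 41 replication-dependent rows, 28 and 35 had an interval in the Parp14+/+ libraries without and with PJ34, and 28 and 32 in the Parp14-/- libraries, beside 61.2%, 60.1%, 52.7% and 50.2% of all rows. The annotation lists 67 replication-dependent genes in the clusters, 26 of them without an accepted row. An interval lay over 20, 27, 23 and 31 of the 67. The share of all annotated genes under an interval was not computed, so these counts stand without a background. In the Hist1 cluster, intervals covered 34500, 47550, 41100 and 52650 bp, most in Parp14-/- + PJ34, while over the whole genome they covered 98.1, 82.4, 73.8 and 65.5 Mb, least in that library.

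In both Parp14-/- libraries and neither Parp14+/+ library, an interval overlapped the annotated Hist1h3f, Hist2h3b and Hist2h2bb. By the flags of the gene table, which are set per row and not per gene body, 0 of 41 replication-dependent rows had this pattern, beside 1.01% of all rows, and the Hist1h3f row was flagged in Parp14+/+ + PJ34 too. For Hist1h3f the heights of its region were also higher there, at 20 and 23 against 12 and 12. For the Hist2h3b and Hist2h2bb region they were 18, 21, 18 and 30, so that Parp14+/+ without an interval was as tall as Parp14-/- with one. An interval marks enriched windows over a stretch, and its absence is not a low peak.

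Genes that regulate, process and chaperone histones were taken from a list of 32, of which 22 had a row at their annotated position. The list holds the transcription factor Npat, the stem-loop binding protein Slbp and chaperones such as Chaf1a and Nasp. Its median ratio was 1.08 in the untreated and 1.08 in the PJ34 genotype pair, beside 1.00 and 1.14 over all distinct rows. In the untreated pair 5 were above 1.4 (Slbp, Chaf1a, Rbbp7, Ubn1 and Npm1) and 3 were below 0.7 (Nasp, Hat1 and Daxx), beside 14.1% and 13.5% of all distinct rows. Under PJ34 1 was above 1.4 (Sympk) and 0 were below 0.7, beside 23.4% and 8.02%. None was past a limit in both pairs in 1 direction, and the genes of this list named here were picked after their values were seen. Npat, which switches on the clusters, had heights of 6, 7, 7 and 6, and Slbp 10.67, 7, 6.33 and 6.33. Daxx, a chaperone of H3.3, had heights of 39, 45, 71 and 43, with a ratio of 0.55 (0.36 to 0.82) in the untreated pair.

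Of 25 genes of DNA replication and S phase entry, 12 had a row at their annotated position. Their median ratio of Parp14+/+ to Parp14-/- was 1.28 without PJ34 and 1.42 with it, beside 1.00 and 1.14 over all distinct rows. There were 4 above 1.4 and 2 below 0.7 in the untreated pair, beside 14.1% and 13.5% of all distinct rows. Under PJ34 there were 6 above 1.4 and 0 below 0.7, beside 23.4% and 8.02%. Mcm5, a helicase subunit, had heights of 8, 11, 4 and 4, and Pcna, the sliding clamp, 18, 22, 17 and 18. Of the 12 genes, 9 had a ratio above 1 in each pair, beside 46.3% and 61.1% of all distinct rows, and 2 a ratio below 1. These genes too were picked after their values were seen, and the difference between these genes and the histone genes was not tested.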

How the data were processed

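RNA polymerase II phospho-serine 2 ChIP-Seq was taken from 4 Th2 libraries, 1 per condition, with an Input used by the authors as background. The authors aligned 36-nt reads to mm9, removed duplicates, brought each library to 8200000 alignments and called intervals with SICER (window 150, fragment 150, gap 450), and SICER and mm9 are also named in the submitters' processing notes. The deposited signal, the average peak height, is a pile-up of fragments and is not divided by length. The table holds 8 columns of other libraries, which were not used. The sample labels and the methods differ on the PJ34 dose.

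From these heights, ratios of 2 libraries were computed, with exact Clopper-Pearson 95% intervals on the heights times the number of regions. They treat each height as a plain count, although it is a tallest pile-up picked within its library, and cover only the counting error so computed. No replicate exists, so no test was run. Rows with identical values were counted once. Region heights were solved from rows that share regions, after regions were assigned from 2.5 kb before to 5 kb after each gene. The steps were tested on simulated data, in which the intervals met plain counts and not tallest pile-ups. Sequences came from NCBIM37 and RefSeq (GRCm38.p6). Python 3.11.15, numpy 2.4.6, pandas 2.3.3, scipy 1.17.1 and matplotlib 3.10.9 were used.

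The members and gene lists were chosen with earlier results of these data known. Named genes were every variant, the tallest replication-dependent locus of each of 5 histone types, the 5 highest and 5 lowest genotype ratios among loci of mean height 10 or more, and genes of the regulator list past a limit in both genotype pairs, which none was. Other genes were named after their values were seen. Alternatives were other limits, a height minimum, scaling, a pseudocount of 1, interval heights and regions counted once.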

Additional observations from a re-analysis of the deposited data

Results flagged for a closer look

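Some ratios pointed 1 way in one genotype or treatment and the opposite way in the other, and these differences were not tested. Hist1h1a had a ratio of untreated to PJ34-treated height of 1.24 in Parp14+/+ and 0.70 in Parp14-/-. For H1f0 the same ratios were 1.13 and 0.61, and its ratios of Parp14+/+ to Parp14-/- were 1.29 without and 0.70 with PJ34. H2afj had genotype ratios of 1.67 and 0.83. H2afx had PJ34 ratios of 1.57 and 0.79 and genotype ratios of 1.16 and 0.58. None of the counting intervals of these ratios excluded 1.

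No accepted row uses 8 regions over annotated replication-dependent genes, and their heights in Parp14-/- + PJ34 are given here. Only the Hist2h4/Hist2h3b/Hist2h2bb region held an interval of the 4 libraries, in Parp14-/- without and with PJ34. The median over all regions with a height of their own was 7 in Parp14-/- + PJ34. The Hist2h4/Hist2h3b/Hist2h2bb region reached 30 and the Hist3h2a region 23. The Hist2h2aa2/Hist2h2aa1/Hist2h3c1 region had 10, and the region of Hist2h3c1 next to it had 6. In Hist1, the height was 9 at Hist1h4k, 9 at Hist1h2ak/Hist1h2bn, 7 at Hist1h4m and 4 at Hist1h4j. Hist3h2a had heights of 9, 15, 15 and 23 over the 4 libraries, and the Hist2h4/Hist2h3b/Hist2h2bb region 18, 21, 18 and 30. The library shown is thus the tallest for both.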

How the results depend on the processing

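No paired analysis was possible because each condition was 1 library, and for the same reason no replicate could be left out. The median ratio of Parp14+/+ to Parp14-/- under PJ34 over the replication-dependent loci, 0.91, was 0.80 after scaling to the median of the table, 0.81 when loci under 10 fragments in both libraries were left out, 0.81 over rows at the named gene of the annotation, and 0.76 with the tallest deposited interval. The median of the variant genes without PJ34, 1.16, turned to 0.99 with the tallest interval, over the 6 genes that have one in both libraries. The other 51 medians stayed within the counting interval of the summed heights, set around the median.

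The number of loci past the limits depended on the limits. With limits of 1.2 and 0.83 it went from 5 to 11 (genotype), from 7 to 13 (genotype under PJ34), from 3 to 14 (PJ34 in Parp14+/+) and from 7 to 14 (PJ34 in Parp14-/-) over the replication-dependent loci. Over the variants it went from 2 to 4 (genotype under PJ34) and from 2 to 5 (PJ34 in Parp14+/+). Counting each region once, an alternative chosen after seeing the data, gave 11, 11 and 9 for the first 3 of these comparisons. It also takes in 8 regions that no accepted row uses and leaves out the Hist3h2ba row, so more than the counting differs. The other 11 counts stayed within 1.5 times. The shares of all distinct rows past 1.2 and 0.83 were not computed. In the untreated genotype pair all distinct rows had quartiles of 0.81 and 1.24, so many of them pass these limits too. Low heights limit single loci: at Hist1h4h/Hist1h2af/Hist1h3g, with 10 and 11 fragments, the counting interval of the genotype ratio ran from 0.35 to 2.36.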
